A study of Mus musculus with 14 samples.

Results

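The ETS transcription factors described here are 9 genes, *Ets1*, *Ets2*, *Elf1*, *Elf3*, *Elf5*, *Ehf*, *Elk3*, *Elk4* and *Etv6*, chosen by their symbols from the 54332 genes of a time course of SOX9 induction in mouse epidermal stem cells (EpdSCs). ETS factors share a winged-helix DNA-binding domain that reads a short GGAA core, so single members are set apart mostly by where they are expressed and by their partners. Several are substrates of the ERK kinases, which alter their activity after growth-factor signals. In skin, the epithelial subgroup is known for its part in keratinocyte differentiation, and *ETS1* and *ETS2* for control of proteases and of genes of proliferating or transformed keratinocytes.

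The RNA-seq time course holds 10 libraries, a pair for each of the timepoints D0, W1, W2, W6 and W12. All libraries are labelled as from male CD1 mice that carried K14rtTA and TRE-myc-Sox9, so that doxycycline (DOX) switched on a MYC-tagged *Sox9* in cells with an active *Krt14* promoter. D0 cells came from postnatal day 21, before DOX, and W1, W2 and W6 cells from mice of postnatal day 28, 35 and 63, after 1, 2 and 6 weeks on DOX. W12 cells came from transgenic newborn skin grafted onto female Nude hosts, which are immunocompromised, and kept on DOX for 12 weeks, so 12 weeks of SOX9 and grafting cannot be told apart. Age rises with time on DOX as well, and RNA of age-matched control mice was not analysed here. Cells were sorted as negative for CD31, CD45, CD117, CD140a and CD34 and high for CD49f and Ly6A. The labels call the replicates biological. The 4 embryonic placode samples of the series were not used here.

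Levels are TPM, a transcript abundance which the authors scaled by transcript length and to a fixed total per library. TPM of different genes can therefore be set side by side, but the depth behind them is unknown and no counting error can be given. Tests were run with limma on log2(TPM + 1), where the change of low genes comes out too small, in the 13110 genes whose mean TPM was 1 or more. P values were adjusted by Benjamini-Hochberg over all these genes, and "rose" or "fell" is used for an adjusted P under 0.05. Of the 9 ETS genes, 8 passed the filter on low values, and *Elf5* did not.

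MYC-SOX9 had 45.6 to 89.6 TPM at D0 and 606 to 3414 TPM in the 8 later libraries. Of the 8 basal epidermal markers, all were at 42.2 TPM or more in every library. *Krt14* led their sum, with 29902 and 31097 TPM at D0 and 35371 and 37666 TPM at W12, but 7 of the 8 fell at W6, when 14.1% of all genes tested fell. At W12 5 fell and *Ly6a* rose, against 25.1% and 17.9% of all genes. *Krt15*, a basal keratin gene, had 11241 and 11928 TPM at D0 and 322 and 242 TPM at W12, and *Trp63*, the p63 gene, fell by −1.83 on the log2 scale at W12 (SE 0.31). Without D0 replicate 2, 6 of the 8 fell at W6 and 5 at W12, and *Ly6a* no longer passed at W12. D0 replicate 2 went against its label, since *Xist* had 4.61 TPM in it and *Ddx3y*, on the Y chromosome, 0.0278 TPM. In D0 replicate 1 and the W1, W2 and W6 libraries *Xist* was at 0.00665 TPM or less and *Ddx3y* at 21.9 to 32.7 TPM. Both W12 libraries listed both genes, with *Xist* at 3.50 to 5.51 TPM and *Ddx3y* at 10.97 to 12.9 TPM. Their hosts were female, and what part host cells had in this was not tested. Changes of the ETS genes against D0 that passed, and the counts of listed genes that rose or fell, are therefore given below also without D0 replicate 2. In that setting 4.455%, 6.354%, 10.01% and 11.56% of all genes rose at the 4 later timepoints in turn and 3.410%, 4.508%, 7.963% and 16.95% fell. The 6 endothelial markers summed to 0.156 to 1.93 TPM in all libraries from D0 to W6 and to 69.1 and 148 TPM at W12, although the sort gated out CD31. *Cdh5*, a defining endothelial gene, was listed at 0 in all 6 libraries of D0, W1 and W2. Since these are bulk samples, a change in the mix of cells and a change of RNA per cell cannot be told apart.

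Against D0, *Ehf* rose at every later timepoint, *Elk3* rose at W6 and W12, *Ets2* fell at every later timepoint and *Ets1* fell at W2 and W6. *Elf1* and *Elk4* fell at W12 by smaller amounts. *Etv6* and *Elf3* passed in no comparison of 2 timepoints. Of the 8 genes tested, 1 rose and 1 fell at W1, when 5.79% of all genes tested rose and 4.10% fell. At W2, 1 rose and 2 fell, against 9.06% and 6.64% of all genes. At W6, 2 rose and 2 fell, against 18.3% and 14.1%, and at W12, 2 rose and 3 fell, against 17.9% and 25.1%. With median-ratio scaling the balance over all genes turned, as 4.19% rose and 5.16% fell at W1, 7.19% and 8.57% at W2, and 14.6% and 17.8% at W6. With that scaling *Ets1* also fell at W1 and *Elf1* at W6, and the other calls of the 8 genes were kept. By limma's moderated F test over the 4 later timepoints against D0, 7 of the 8 genes differed, as did 57.5% of all genes. The exception was *Etv6* (adjusted P = 0.603, limma with Benjamini-Hochberg). The median log2 change over the 8 genes at the 4 later timepoints in turn was 0.19, 0.01, −0.20 and 0.13, and over all genes it was 0.09, 0.06, 0.08 and −0.08. With D0 replicate 2 left out, the numbers that differed were the same as with it, 2, 3, 4 and 5 at W1, W2, W6 and W12. At W12 those 5 then included *Ets1* and no longer *Elf1*.

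**Figure D1:**
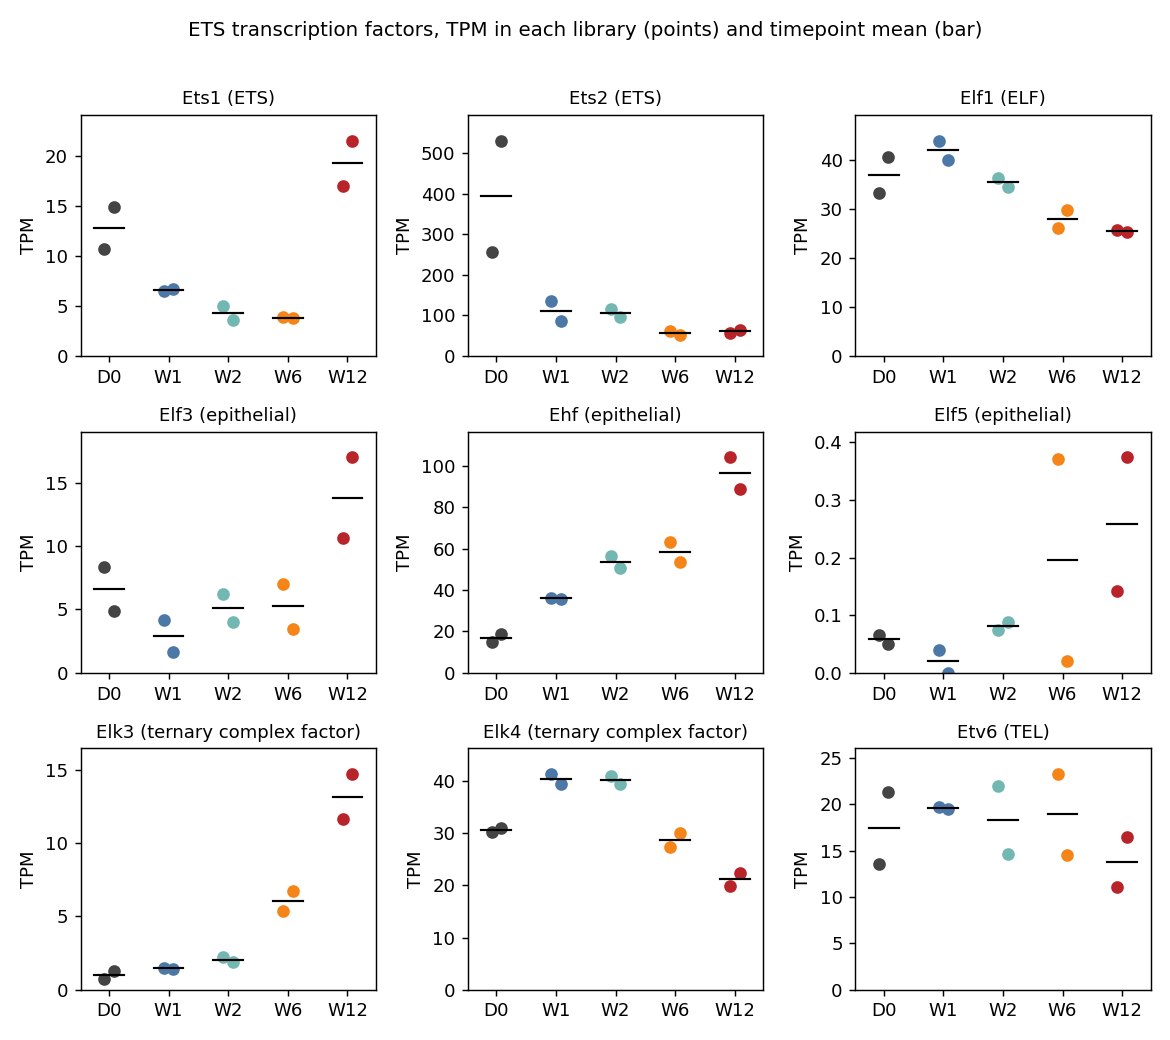
TPM of each of the 9 ETS genes (vertical axes from 0, one panel a gene) in the 2 libraries of D0, W1, W2, W6 and W12 (points), with the timepoint mean as a bar. *Ehf* climbs from 14.9 and 19.0 TPM at D0 to 104 and 88.9 TPM at W12 and *Ets2* drops from 256 and 530 TPM to 58.1 and 65.0 TPM, while *Ets1* dips and is highest at W12.

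**Figure D2:**
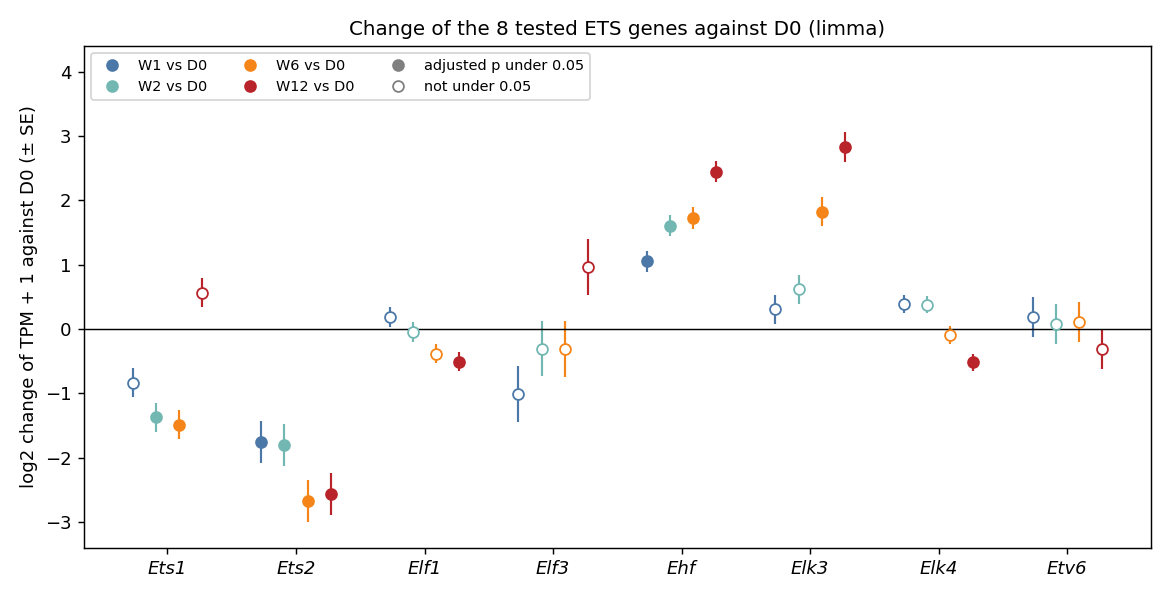
Log2 change of TPM + 1 against D0 (vertical axis, with its standard error from limma) for the 8 tested ETS genes at W1, W2, W6 and W12. Filled points have an adjusted P under 0.05, and those of *Ehf* lie between 1.05 and 2.45.

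Of the ETS subgroup, *Ets2* was the most abundant of the 9 genes at D0. ETS1 and ETS2 are close relatives with a pointed domain, next to which ERK phosphorylates them. *Ets2* (chromosome 16, 95702075 to 95721051, plus strand, GRCm38, GENCODE M21) had 256 and 530 TPM in the 2 D0 libraries. It had 136 and 86.5 TPM at W1, 115 and 95.5 TPM at W2, 61.6 and 52.3 TPM at W6 and 58.1 and 65.0 TPM at W12. Every later library was below both D0 libraries, and the D0 libraries differed from each other more than any later pair. The fall was 3.54-fold in mean TPM at W1 and 6.90-fold at W6. On the log2(TPM + 1) scale it was −1.76 at W1 (SE 0.33, adjusted P = 0.0122, limma with Benjamini-Hochberg), −1.80 at W2 (adjusted P = 0.00815), −2.68 at W6 (adjusted P = 0.000722) and −2.56 at W12 (adjusted P = 0.000555).

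The height of *Ets2* at D0 went along with that of other genes. The 12 immediate-early genes, which switch on within minutes of a growth-factor or stress signal, summed to 26215 and 42017 TPM in the D0 libraries and to 4782 to 10576 TPM in the 8 later ones. D0 replicate 2 was the higher D0 library both for this sum and for *Ets2*. Of these 12 genes, 9, 8, 9 and 10 fell at the 4 later timepoints in turn, against 4.10%, 6.64%, 14.1% and 25.1% of all genes, and none rose, with a median log2 change of −2.28 at W1 and −2.54 at W12. When D0 replicate 2 was left out, 6, 7, 9 and 10 fell. *Fosb*, which encodes an AP1 subunit, and *Egr1*, a zinc-finger factor, fell most at W12, by −3.98 and −3.62 (SE 0.64 and 0.47). What part this had in the fall of *Ets2* was not tested. Without D0 replicate 2, the log2 changes of *Ets2* were −1.23, −1.28, −2.15 and −2.04 at W1, W2, W6 and W12, and all 4 still passed. Without W1 replicate 2 the change at W1 was −1.43 (adjusted P = 0.112, limma with Benjamini-Hochberg), and without W2 replicate 2 that at W2 was −1.67 (adjusted P = 0.0687).

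*Ets1* (chromosome 9, 32636221 to 32757820, plus strand) first fell and was then high at W12. It had 10.7 and 14.9 TPM at D0, 6.56 and 6.74 TPM at W1 and 5.05 and 3.58 TPM at W2. At W6 it had 3.92 and 3.82 TPM, and at W12 17.1 and 21.6 TPM. All 6 libraries of W1, W2 and W6 were below D0, and both W12 libraries were above every other library. Against D0 the log2 change was −0.83 at W1 (SE 0.23, adjusted P = 0.0524, limma with Benjamini-Hochberg), −1.37 at W2 (adjusted P = 0.00493), −1.49 at W6 (adjusted P = 0.002) and 0.57 at W12 (adjusted P = 0.0717). From W6 to W12 mean TPM rose from 3.87 to 19.3, by 2.05 on the log2 scale (adjusted P = 0.000732). With D0 replicate 2 left out, the changes at W2 and W6 were −1.15 and −1.26 and still passed, and that at W12 was 0.79 (adjusted P = 0.0495), while without D0 replicate 1 it was 0.34 (adjusted P = 0.287) and without W12 replicate 2, the library with more endothelial marker RNA, 0.41 (adjusted P = 0.314). Without W2 replicate 2 the change at W2 was −1.17 (adjusted P = 0.0571), and without D0 replicate 1 that at W1 was −1.06 (adjusted P = 0.0316, all by limma with Benjamini-Hochberg). The W12 change passed with quantile normalization too (0.76, adjusted P = 0.0221), and the W1 change with that (−0.88, adjusted P = 0.039), with median-ratio scaling (−0.95, adjusted P = 0.0446) and with eBayes without trend (−0.83, adjusted P = 0.049).

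*ETS1* is also known from endothelial cells and lymphocytes. The endothelial marker sum was 69.1 TPM in W12 replicate 1 and 148 TPM in replicate 2, where *Ets1* was 17.1 and 21.6 TPM. *Pecam1*, the CD31 gene, had 26.1 and 59.8 TPM at W12, and *Emcn*, an endothelial sialomucin gene, 22.9 and 45.5 TPM. No test is given for these markers, since those that passed the filter on low values did so only through W12. The part of endothelial RNA in the W12 level of *Ets1* was not tested. The 8 leukocyte markers summed to 1.98 to 2.03 TPM at W12, below their range of 2.53 to 4.90 TPM from D0 to W6, and 7 of the 8, the CD45 gene *Ptprc* among them, were under 1 TPM in every library. These markers did not move together. *Cd52*, at 0.583 to 2.98 TPM, was lowest in W12 replicate 2, where *Ptprc* and *Lyz2* were highest (0.327 and 0.956 TPM). The 6 fibroblast markers summed to 13.7 and 28.1 TPM at W12 and to 1.68 and 52.2 TPM at W6, where *Ets1* was at 3.92 and 3.82 TPM. Nearly all of this was 1 gene, *Dcn* (13.2 and 27.2 TPM at W12, 1.46 and 51.2 TPM at W6), and the other 5 markers together were under 1 TPM in each of these 4 libraries.

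**Figure D3:**
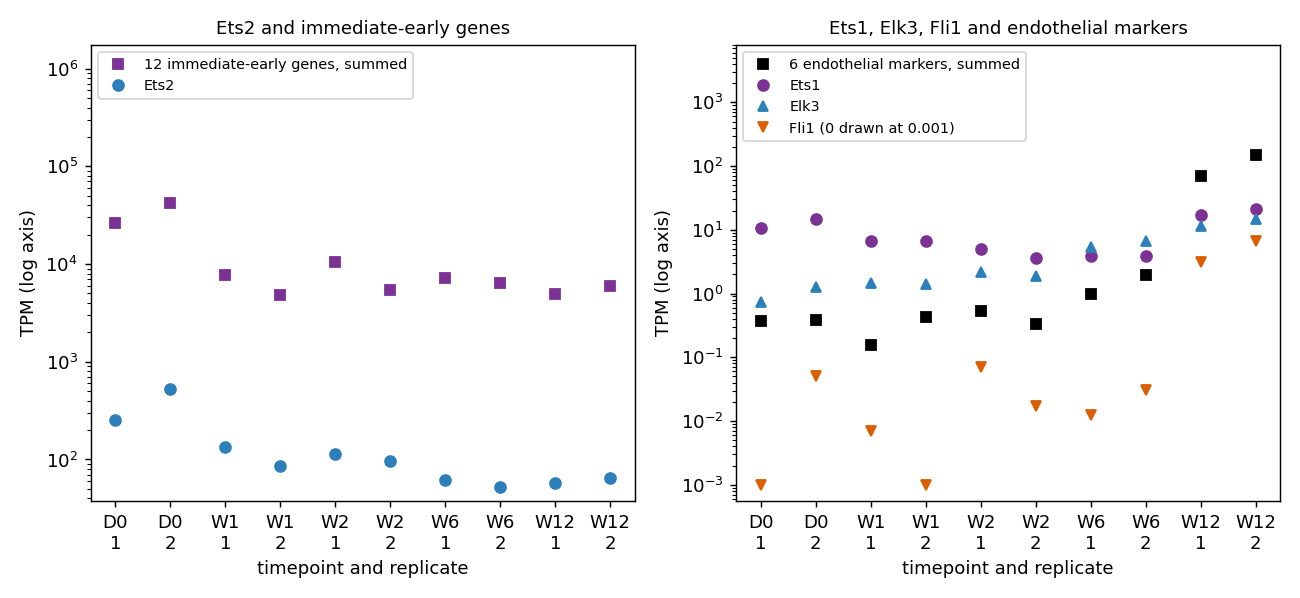
TPM on a log axis in each of the 10 libraries (timepoint and replicate). The left panel shows *Ets2* with the sum of 12 immediate-early genes, both highest at D0, and the right panel *Ets1*, *Elk3* and *Fli1* with the sum of 6 endothelial markers, which is under 2 TPM up to W6 and 69.1 and 148 TPM at W12 (values of 0 are drawn at 0.001 TPM).

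The epithelial subgroup, *Ehf*, *Elf3* and *Elf5*, encodes factors found mainly in epithelia. *Ehf* (chromosome 2, 103263433 to 103303278, minus strand) and *Elf5* (103411688 to 103450989, plus strand) are neighbours, 108409 bases apart and transcribed away from each other, and *Elf3* lies on chromosome 1 (135253575 to 135258568, minus strand). *Ehf* had 14.9 and 19.0 TPM at D0, 36.1 and 35.7 TPM at W1 and 56.3 and 50.4 TPM at W2. It had 63.2 and 53.3 TPM at W6 and 104 and 88.9 TPM at W12. Each later library was above both D0 libraries, and the W12 libraries were above all others. Mean TPM was 2.12-fold that of D0 at W1, 3.15-fold at W2, 3.44-fold at W6 and 5.69-fold at W12. The log2 changes were 1.05 (SE 0.17, adjusted P = 0.00595, limma with Benjamini-Hochberg), 1.61 (adjusted P = 0.000629), 1.73 (adjusted P = 0.000257) and 2.45 (adjusted P = 2.48e-05). *Ehf* was the ETS gene with the lowest P in the F test (adjusted P = 0.000119).

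Markers of other epidermal states were measured in the same libraries. The 6 suprabasal markers summed to 1807 and 5581 TPM at D0, 4974 to 6876 TPM at W1, 3501 to 6142 TPM at W2, 11591 to 12272 TPM at W6 and 11607 to 13222 TPM at W12. Most of the sum at W6 and W12 was *Krtdap* (3314 and 647 TPM at D0, 11060 and 9986 TPM at W12), and the other 5 markers together had 2267 and 1160 TPM at D0 and 2161 and 1620 TPM at W12. Of these 6, 1 rose at W1, 2 at W2 and 3 at W6, against 5.79%, 9.06% and 18.3% of all genes, and 2 rose and 1 fell at W12, against 17.9% and 25.1%. The rises at W12 were those of *Krtdap* (2.84, SE 0.63) and *Ivl*, involucrin of the cornified envelope (2.82, SE 0.23), and the fall was that of *Lor* (−2.60, SE 0.43). The 6 markers of the upper follicle and hair follicle stem cells summed to 1522 and 1623 TPM at D0, 5424 to 6977 TPM at W1 and W2, 11023 and 22447 TPM at W6 and 8230 and 10500.2 TPM at W12. Most of this sum was keratin RNA, *Krt79*, *Krt17* and *Krt6a* having 6417, 11555.5 and 4424 TPM in W6 replicate 1. Of the 6 markers, 4 rose at each of W1, W2 and W6, against 5.79%, 9.06% and 18.3% of all genes, and 3 rose and 1 fell at W12, against 17.9% and 25.1%. Of the markers that are not keratins, *Nfatc1* rose at W1 and W2. *Lhx2* (0.904 to 4.075 TPM) passed at no timepoint against D0, and *Cd34* was at 0.383 TPM or less up to W2. *Krt6a*, a keratin gene of the follicle and of stressed epidermis, rose most at W12 (8.10, SE 0.47), followed by *Cd34* (4.31, SE 0.35), although the sort gated out CD34, and the fall was that of *Nfatc1* (−0.86, SE 0.24). *Cd34* is also an endothelial gene, and it had 2.66 and 5.04 TPM at W6 and 16.5 and 32.0 TPM at W12, where the endothelial marker sum was 0.976 and 1.93 TPM and 69.1 and 148 TPM. The 4 sebocyte markers summed to 85.9 and 98.95 TPM at D0, 195 to 198 TPM at W1, 413 to 432 TPM at W2, 308 to 389 TPM at W6 and 267 to 344 TPM at W12, with *Pparg*, a defining gene, at 1.11 TPM or less throughout. Of the 3 tested, 2 rose and 1 fell at W1, 1 rose at W2, 2 rose at W6, and 2 rose and 1 fell at W12, beside the same shares of all genes. *Mgst1*, a microsomal glutathione transferase gene, rose at all 4 timepoints (2.38 at W12, SE 0.24), the lipid droplet gene *Plin2* by 1.75 at W12 (SE 0.22), and *Scd1*, a fatty acid desaturase gene, fell by −0.55 (SE 0.19).

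When D0 replicate 2 was left out, the suprabasal counts were the same. Of the follicle markers, 4, 3, 4 and 3 rose at the 4 later timepoints in turn and none fell, and of the sebocyte markers, 1, 1, 2 and 2 rose and none fell. The 5 melanocyte markers summed to 1.22 and 4.89 TPM at D0 and to 10.9 and 12.5 TPM at W12, when *Dct*, a pigment enzyme gene, rose by 1.30 (SE 0.44), and by 1.89 without D0 replicate 2. *Pmel*, a melanosome gene, changed by 0.75 (adjusted P = 0.0997, limma with Benjamini-Hochberg). *Tyrp1*, another pigment enzyme gene, passed the filter on low values only through W12, so no test is given for it. The 3 Merkel cell markers summed to at most 1.98 TPM. The part of such cells in the rise of *Ehf* was not tested.

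Between successive timepoints, the rise of *Ehf* from W1 to W2 was 0.56 (adjusted P = 0.194) and that from W6 to W12 was 0.72 (adjusted P = 0.0198, limma with Benjamini-Hochberg). Without D0 replicate 2 its changes against D0 were 1.21, 1.77, 1.89 and 2.61 and all passed. The change at W1 did not pass without W1 replicate 2 (1.06, adjusted P = 0.0557), nor that from W6 to W12 without W6 replicate 2 (0.60, adjusted P = 0.0636) or W12 replicate 1 (0.61, adjusted P = 0.137).

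*Elf3*, which is induced in differentiating and inflamed epithelia, had 8.36 and 4.89 TPM at D0, 4.15 and 1.63 TPM at W1 and 6.23 and 3.99 TPM at W2. It had 7.02 and 3.49 TPM at W6 and 10.7 and 17.0 TPM at W12. Both W12 libraries were above all others, and the pairs of D0, W2 and W6 overlapped. The change against D0 was −1.01 at W1 (SE 0.43, adjusted P = 0.183, limma with Benjamini-Hochberg) and 0.96 at W12 (adjusted P = 0.102), with a 95% interval of −0.02 to 1.95 for the latter. From W6 to W12 it was 1.27 (adjusted P = 0.0707). The W12 change was 0.63 without D0 replicate 2 (adjusted P = 0.400) and 0.65 without W12 replicate 2 (adjusted P = 0.395). With D0 replicate 2 left out, the changes at W1, W2 and W6 were −1.35, −0.64 and −0.64, and none passed. Over the 4 contrasts together the F test gave an adjusted P of 0.0334 with limma and Benjamini-Hochberg.

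*Elf5*, known from mammary alveolar and trophoblast cells, had at most 0.374 TPM in any library and was at 0 in W1 replicate 2. Its 2 highest values, 0.370 TPM in W6 replicate 1 and 0.374 TPM in W12 replicate 2, had partners of 0.0215 and 0.142 TPM. In a fit over all genes above 0, its change at W12 was 0.24 (SE 0.14, adjusted P = 0.391, limma with Benjamini-Hochberg). So the neighbours *Ehf* and *Elf5* were at opposite ends of the group at W12, at 96.4 ± 10.6 TPM and 0.258 ± 0.164 TPM (SD, n = 2).

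The ternary complex factors *Elk3* and *Elk4* bind serum response elements together with the factor SRF, and *Elk3* acts as a repressor until ERK phosphorylates it. *Elk3* (chromosome 10, 93247414 to 93311135, minus strand) had 0.728 and 1.27 TPM at D0, 1.48 and 1.41 TPM at W1 and 2.21 and 1.87 TPM at W2. It had 5.36 and 6.75 TPM at W6 and 11.6 and 14.7 TPM at W12. No 2 successive timepoints overlapped, and the W12 mean was 13.2-fold that of D0. On the log2(TPM + 1) scale the changes were 0.31 at W1 (SE 0.23, adjusted P = 0.445, limma with Benjamini-Hochberg), 0.62 at W2 (adjusted P = 0.104), 1.82 at W6 (adjusted P = 0.00079) and 2.83 at W12 (adjusted P = 5.5e-05). The rise from W2 to W6 was 1.21 (adjusted P = 0.0134) and that from W6 to W12 1.01 (adjusted P = 0.0182).

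*Elk3* is also known from endothelial cells, and the part of endothelial RNA in its levels was not tested. The 6 endothelial markers summed to 0.976 and 1.93 TPM at W6 and to 69.1 and 148 TPM at W12, the timepoints at which *Elk3* rose. When D0 replicate 2 was left out, the changes at W6 and W12 were 2.02 and 3.03 and still passed. The step from W2 to W6 did not pass without W2 replicate 1 (1.29, adjusted P = 0.0847) or replicate 2 (1.13, adjusted P = 0.101), nor that from W6 to W12 without W6 replicate 1 (0.86, adjusted P = 0.0669), W12 replicate 1 (1.161, adjusted P = 0.0588) or W12 replicate 2 (0.85, adjusted P = 0.0992, all by limma with Benjamini-Hochberg).

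*Elk4* (chromosome 1, 132007607 to 132032612, plus strand) had 30.3 and 31.1 TPM at D0, 41.3 and 39.4 TPM at W1 and 40.9 and 39.5 TPM at W2. It had 27.3 and 30.1 TPM at W6 and 19.9 and 22.4 TPM at W12. The W1 and W2 libraries were above D0 and the W6 and W12 libraries below it. The change was 0.38 at both W1 (SE 0.14, adjusted P = 0.118, limma with Benjamini-Hochberg) and W2 (adjusted P = 0.0953), −0.09 at W6 (adjusted P = 0.623) and −0.52 at W12 (adjusted P = 0.0151), while that from W2 to W6 was −0.47 (adjusted P = 0.0472). The fall at W12 was −0.50 without D0 replicate 2 (adjusted P = 0.0478) but did not pass without W12 replicate 1 (−0.44, adjusted P = 0.0906) or with quantile normalization (−0.33, adjusted P = 0.0636). The fall from W2 to W6 did not pass when any 1 of the 8 libraries after D0 was left out (−0.41 to −0.54, adjusted P from 0.0666 to 0.245, limma with Benjamini-Hochberg).

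The stretches before the starts of these paralogues, one of which rose and one of which fell by W12, are shown from a set of RefSeq promoter windows (GRCm38.p6). The set used here held windows for 7 of the 9 genes, with 11 windows in all, each of 300 bases. *Ehf* and *Ets1* had no entry in that set. Each stretch is given 5′ to 3′ on the gene's own strand and ends at or before the first base of the gene in GENCODE M21. *Elk4* is at chr1:132007370-132007606 (plus strand, 237 bases) and *Elk3* at chr10:93311160-93311409 (minus strand, 250 bases). Capitals mark CCGGAAG, a 7-base form of the ETS site. The shorter GGAA core also occurs elsewhere in both stretches and is not marked.
Elk4: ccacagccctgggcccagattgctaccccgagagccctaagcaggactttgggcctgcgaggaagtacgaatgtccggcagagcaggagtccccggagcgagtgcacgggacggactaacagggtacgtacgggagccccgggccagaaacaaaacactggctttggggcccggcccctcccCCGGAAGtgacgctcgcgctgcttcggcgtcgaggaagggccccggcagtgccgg
Elk3: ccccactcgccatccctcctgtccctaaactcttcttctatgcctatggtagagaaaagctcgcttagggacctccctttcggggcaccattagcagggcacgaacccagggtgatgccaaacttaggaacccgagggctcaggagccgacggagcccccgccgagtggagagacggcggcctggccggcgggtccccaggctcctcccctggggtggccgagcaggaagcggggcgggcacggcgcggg
The 7-base CCGGAAG, searched on both strands, begins 68 bases before the RefSeq start in the *Elk4* window and is in no window of the other 6 genes. GGAA alone was not counted, so a window without CCGGAAG can still hold it. Of all 32851 promoter windows, 8.86% held it. ACAATG, a SOX core, was found in 1 window of *Elf5* (12.6% of all windows), TGANTCA, an AP1 site, in 1 window of *Elf1* (7.81% of all), and TGTGGTT, a RUNX site, in none (5.27% of all). The letters of these 4 motifs do not contain one another, and a match is a description of the sequence only.

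*Elf1* (chromosome 14, 79481194 to 79582494, plus strand), a widely expressed activator, had 33.3 and 40.6 TPM at D0, 44.0 and 40.1 TPM at W1 and 36.4 and 34.6 TPM at W2. It had 26.2 and 29.8 TPM at W6 and 25.8 and 25.4 TPM at W12. The W6 and W12 libraries were below D0, and those of W1 and W2 overlapped with it. The changes were 0.19 at W1 (SE 0.15, adjusted P = 0.485, limma with Benjamini-Hochberg), −0.05 at W2 (adjusted P = 0.863), −0.38 at W6 (adjusted P = 0.0828) and −0.51 at W12 (adjusted P = 0.0254). Without D0 replicate 2 the change at W12 was −0.37 (adjusted P = 0.116), and it also did not pass without either W12 library (adjusted P = 0.0901 and 0.098), without either W2 library (0.0507 and 0.0506) or with quantile normalization (−0.34, adjusted P = 0.107). The change at W6 passed without D0 replicate 1 (−0.52, adjusted P = 0.0323) and with median-ratio scaling (−0.53, adjusted P = 0.0396).

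*Etv6* (chromosome 6, 134035700 to 134270158, plus strand), a repressor that assembles through its own pointed domain, had 13.6 and 21.3 TPM at D0, 19.7 and 19.4 TPM at W1 and 22.0 and 14.7 TPM at W2. It had 23.2 and 14.6 TPM at W6 and 11.1 and 16.5 TPM at W12. Every later timepoint overlapped with D0. Its change against D0 at W12 was −0.31 (SE 0.31, 95% interval −1.02 to 0.40, adjusted P = 0.445, limma with Benjamini-Hochberg). With D0 replicate 2 left out, its changes were 0.50, 0.38, 0.41 and −0.0064 at W1, W2, W6 and W12, and none passed.

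Between successive timepoints, 0 of the 8 ETS genes tested passed from W1 to W2 by limma with Benjamini-Hochberg, with or without the variance trend, and 2 of them, *Ehf* and *Ets1*, had an unadjusted P under 0.05, as did 14.5% of all genes. By adjusted P, 0.0458% of all genes rose and 0.0686% fell in that step. From W2 to W6, *Elk3* rose and *Elk4* fell, against 7.99% and 8.31% of all genes. *Ets2* changed by −0.87 in that step (SE 0.33, adjusted P = 0.101, limma with Benjamini-Hochberg), and passed without D0 replicate 1 (adjusted P = 0.027), without D0 replicate 2 (adjusted P = 0.0272) and in a fit of the W2 and W6 libraries alone (adjusted P = 0.0491). *Elk3* (adjusted P = 0.0502) and *Elk4* (adjusted P = 0.096) did not pass in that fit. From W6 to W12, *Ets1*, *Ehf* and *Elk3* rose and none fell, against 6.66% and 13.5% of all genes. The median of all genes in that last step was −0.16 on the log2 scale, and −0.02 with median-ratio scaling. With that scaling the same 3 genes passed, while 8.11% of all genes rose and 6.45% fell. *Elk4* passed in that step without D0 replicate 1 (−0.43, adjusted P = 0.0463) or replicate 2 (adjusted P = 0.0466, limma with Benjamini-Hochberg).

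The order of the 9 genes by level turned over. At D0, *Ets2* was far above *Elf1* and *Elk4*, which were followed by *Etv6*, *Ehf* and *Ets1*, then *Elf3*, *Elk3* and *Elf5*. *Etv6* did not differ from *Ehf* beyond the spread of the 2 libraries there, nor *Ehf* from *Ets1*, and all other neighbours were apart. At W1 *Elf1* overlapped with *Elk4*, and at W2, when *Ehf* had moved to second place, *Elf3* overlapped with *Ets1*. At W6 *Ehf* and *Ets2* shared the top with overlapping values of 53.3 to 63.2 and 52.3 to 61.6 TPM. *Elk4* overlapped with *Elf1* there, and *Elk3* with *Elf3* and *Elf3* with *Ets1*. At W12 *Ehf* was first, above *Ets2* and *Elf1* with no overlap. *Elk4* then overlapped with *Ets1*, and *Elf3*, *Etv6* and *Elk3* lay within 10.7 to 17.0 TPM of each other. Among all 54332 genes ranked by mean TPM, *Ets2* went from 386 at D0 to 2347 at W12 and *Ehf* from 6321 to 1583.

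Summed over the 9 genes, TPM was 368 and 663 at D0, 231 to 289 at W1, 244 to 284 at W2, 194 to 218 at W6 and 258 to 272 at W12. *Ets2* made up 69.6% and 79.9% of the sum at D0, 46.9% and 37.5% at W1, 28.3% and 27.0% at W6 and 22.5% and 23.9% at W12.

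**Figure D4:**
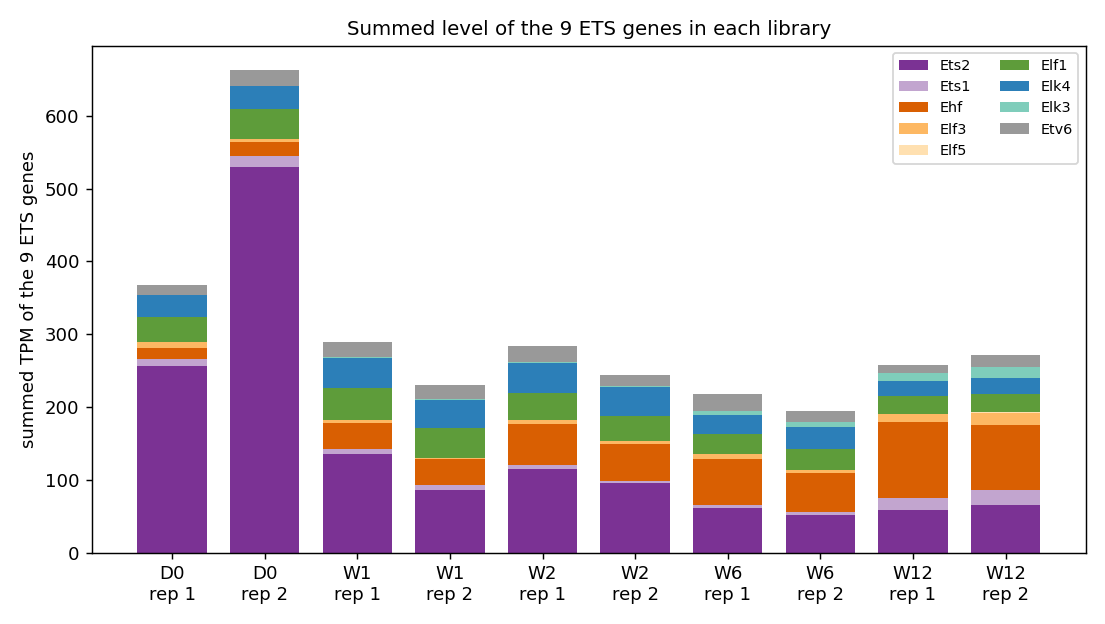
Summed TPM of the 9 ETS genes in each of the 10 libraries (vertical axis from 0), stacked by gene. *Ets2* is 69.6% and 79.9% of the D0 bars and 22.5% and 23.9% of the W12 bars, whose largest block is *Ehf*.

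The genes most like *Ehf*, *Elk3* and *Ets1*, the 3 ETS genes with the lowest F-test P, were found by Pearson's r of log2(TPM + 1) over the 10 libraries, whose points share timepoints and libraries. For *Ehf* they were *Pthlh* (r = 0.970), which encodes parathyroid hormone-related protein, *Vhl* (r = 0.962), a ubiquitin ligase component, and *Gpx2* (r = 0.957), a glutathione peroxidase. *Pthlh* had 3.47 and 5.30 TPM at D0 and 38.6 and 42.6 TPM at W12. For *Elk3* they were *Qpct* (r = 0.989), which encodes glutaminyl-peptide cyclotransferase, *Fxyd5* (r = 0.986), a sodium pump regulator, and *Kcnn4* (r = 0.986), a calcium-activated potassium channel. *Fxyd5* had 1.23 and 1.58 TPM at D0, 16.2 and 18.01 TPM at W6 and 89.3 and 118 TPM at W12. For *Ets1* they were *Riok3* (r = 0.976), a RIO-family kinase gene, *Asah1* (r = 0.975), acid ceramidase, and *Gipc2* (r = 0.956), a PDZ protein gene.

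Of 18 other ETS genes listed, 9 passed the filter, *Fli1* only through W12. Of the other 8, none differed at W1, when 5.79% of all genes rose and 4.10% fell. At W2, 1 rose and none fell, against 9.06% and 6.64% of all genes. At W6, 2 rose and 4 fell, against 18.3% and 14.1% of all genes, and at W12, 1 rose and 4 fell, against 17.9% and 25.1%. When D0 replicate 2 was left out, 1 fell at W6, *Etv3*, and the other counts were the same. *Etv4* and *Etv5*, of the PEA3 subgroup that is induced downstream of FGF and ERK signals, were highest at W6. *Etv4* had 2.97 and 3.71 TPM at D0, 67.3 and 39.9 TPM at W6 and 13.5 and 15.8 TPM at W12, a log2 change of 3.61 at W6 (SE 0.36, adjusted P = 0.000315, limma with Benjamini-Hochberg) and of −1.76 from W6 to W12 (adjusted P = 0.0129). *Etv5* changed by 1.07 at W6 (adjusted P = 0.043) and by −1.56 from W6 to W12 (adjusted P = 0.0164). *Elk1*, the remaining ternary complex factor, fell from 6.05 and 9.06 TPM at D0 to 2.20 and 1.97 TPM at W12, a change of −1.45 (adjusted P = 0.00127), so that at W12 *Elk1* and *Elk4* were lower and *Elk3* was higher than at D0. *Elf4*, the closest relative of *Elf1*, fell by −1.81 (adjusted P = 0.00128), *Elf2* by −0.76 (adjusted P = 0.0068) and the repressor *Etv3* by −1.46 (adjusted P = 0.00168, all by limma with Benjamini-Hochberg). The repressor gene *Erf* changed by −1.28 at W12 (adjusted P = 0.0524) and *Gabpa*, which pairs with GABPB on promoters, by −0.03 (adjusted P = 0.905).

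*Fli1*, of endothelial and blood cells, had 0.0712 TPM or less in all 8 libraries from D0 to W6 and 3.16 and 6.66 TPM at W12. Its relative *Erg* had 1.52 and 2.17 TPM at W12 and at most 0.820 TPM before. No test is given for either. Both were higher in W12 replicate 2, the library with the higher endothelial marker sum, and the part of endothelial RNA in these values was not tested. The other 8 listed genes were at 1.14 TPM or less in every library, *Spi1*, the PU.1 gene of myeloid cells, and *Spdef*, of secretory epithelia, among them.

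Of 13 partners and co-regulators, 12 were tested. *Runx1*, whose product binds DNA together with ETS1, rose at all 4 timepoints, from 6.98 and 8.04 TPM at D0 to 74.0 and 53.8 TPM at W2, and had 22.4 and 29.3 TPM at W12, the latter a log2 change of 1.65 (SE 0.21, adjusted P = 0.000578, limma with Benjamini-Hochberg). *Srf*, the partner of the ternary complex factors, had 81.7 and 110 TPM at D0 and 30.8 and 32.3 TPM at W12 (−1.56, SE 0.24, adjusted P = 0.00124, limma with Benjamini-Hochberg), and fell at W2 and W6 as well. Its fall at W2 did not pass without D0 replicate 2. The coactivator gene *Ep300* fell at W12 by −1.25 (adjusted P = 0.00302). *Mrtfa*, which encodes an SRF coactivator, had 5.26 and 7.02 TPM at D0, 13.1 and 15.8 TPM at W1 and 2.79 and 2.99 TPM at W12. It rose at W1 (1.12, SE 0.22, adjusted P = 0.0149, limma with Benjamini-Hochberg) and W2 (0.94, adjusted P = 0.0234) and fell at W12 (−0.86, adjusted P = 0.0134).

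Of the 12 partners, 2 rose and none fell at W1, against 5.79% and 4.10% of all genes, 2 rose and 1 fell at W2, against 9.06% and 6.64%, and 3 rose and 1 fell at W6, against 18.3% and 14.1%. At W12, 1 rose and 5 fell, against 17.9% and 25.1%. Without D0 replicate 2, 3, 2, 2 and 1 rose at the 4 later timepoints in turn and 0, 0, 1 and 3 fell by limma with Benjamini-Hochberg, and *Mrtfa* passed at W1 and W2 but not at W12 (−0.69, adjusted P = 0.0792).

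Of 10 kinases of the ERK cascade, 1 rose at W1, 1 at W2 and 2 at W6, against 5.79%, 9.06% and 18.3% of all genes, and none fell at these times. At W12, when 17.9% of all genes rose and 25.1% fell, *Rps6ka3* (RSK2) rose by 0.84 (SE 0.25, adjusted P = 0.0246, limma with Benjamini-Hochberg) and 4 fell, *Rps6ka1* (RSK1) among them (−0.83, adjusted P = 0.0253). With D0 replicate 2 left out, *Rps6ka3* and *Rps6ka1* no longer passed at W12, when 2 of the 10 fell and none rose, and none rose at W1, 1 at W2 and 1 at W6. RNA levels of kinases say nothing of their activity.

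Of 16 genes that have been described as ETS targets in epithelia, 15 passed the filter, 3 of them (*Plaur*, *Mmp10* and *Mmp13*) only through W12. Of the remaining 12, 1 rose and 2 fell at W1, 4 rose and 2 fell at W2, and 6 rose and 2 fell at W6. Of all genes, 5.79% rose and 4.10% fell at W1, 9.06% and 6.64% at W2, and 18.3% and 14.1% at W6. At W12, 8 rose and 2 fell, against 17.9% and 25.1%. When D0 replicate 2 was left out, none rose and 2 fell at W1, 2 rose and 3 fell at W2, 6 rose and 3 fell at W6, and 8 rose and 2 fell at W12. With all 10 libraries, the median log2 change of these 12 genes was 0.04, 0.59, 1.12 and 2.54 at the 4 later timepoints in turn. By W12, *Sprr1b*, a cornified envelope precursor, rose most, from 3.53 and 0.502 to 694 and 741 TPM (log2 change 8.10, SE 0.73). The collagenase gene *Mmp13* had 0.154 and 0.0227 TPM at D0 and 74.3 and 109 TPM at W12. The falls at W12 were those of *Lor*, loricrin of the cornified layer (−2.60, SE 0.43), and of the TGF-beta receptor gene *Tgfbr2* (−1.46, SE 0.24). These genes have other regulators too, and none was tied to an ETS factor here. *Flg* and *Lor* are also among the suprabasal markers, so their calls were counted in both lists.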

How the data were processed

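The members and gene lists were chosen with earlier results of these data known. The authors sequenced low-input libraries of sorted cells, quantified transcripts with Salmon 1.4.0 against GRCm38 (mm10), and summed them to genes with Tximport 1.12.3. They deposited TPM, which keep no depth, so the depth and counting error per library are unknown. The second deposited table holds only the authors' comparison of placode samples (log2 changes, P values), which was not used.

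Here, 13110 genes whose mean TPM was 1 or more were tested on log2(TPM + 1) with limma 3.58.1 in R 4.3.3, as means of 5 timepoints over all 10 libraries, with eBayes, a variance trend and Benjamini-Hochberg adjustment over all genes. The study's DESeq2 test needs counts and was not run. The step was run on simulated data with independent normal noise and known shifts at W12 only. These held no change in the mix of cells, no effect of depth and no library against its label, so such limits were not tested. Named were the 9 genes, other ETS genes, the 2 largest rises and falls of each list at W12 past the threshold, and the 3 genes most like each of the 3 lead genes. One gene that this rule names is not reported here. *Cdh5*, *Ptprc*, *Cd52*, *Lyz2*, *Krt14*, *Krt79*, *Krt17*, *Lhx2*, *Flg*, *Pparg*, *Dcn*, *Pmel*, *Mrtfa*, *Plaur*, *Mmp10* and the sex-linked genes were named after their values were seen. Alternatives were a pseudocount of 0.1, eBayes without trend, all genes above 0, quantile normalization, only genes averaging 5 TPM or more, median-ratio scaling, a replicate block, each library left out and only the 4 libraries compared. Counts of listed genes without D0 replicate 2 were added after seeing the data. No column was unmatched.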

Additional observations from a re-analysis of the deposited data

How the results depend on the processing

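With the pseudocount of 0.1, all calls of the 8 genes were kept. Of 1001 values under alternatives, 919 kept their direction and side of the threshold, 42 no longer passed, 13 newly passed and 27 changed sign, none of them a call. The number of ETS genes that differed was 2 at W1, 3 at W2, 4 at W6, 5 at W12, 0 from W1 to W2, 2 from W2 to W6 and 3 from W6 to W12. With each library left out in turn it was 0 to 3 at W1, 1 to 3 at W2, 4 to 5 at W6, 3 to 5 at W12, 0 to 3 from W2 to W6, 1 to 4 from W6 to W12 and 5 to 7 by the F test. Only the 4 libraries compared gave 0 at W1, 1 at W2, 3 at W12, 1 from W2 to W6 (*Ets2*, in place of *Elk3* and *Elk4*) and 1 from W6 to W12. All genes above 0 gave 1 at W1 (*Ets2* −1.76, adjusted P = 0.0803 by limma with Benjamini-Hochberg) and 1 from W2 to W6, and a mean of at least 5 TPM, which leaves out *Elk3*, gave 1 from W2 to W6, as did eBayes without trend. *Ets2* at W2 also did not pass with all genes above 0 (adjusted P = 0.0571). Over all genes, the 1296 called at W1 became 606 with all genes above 0 and 411 with only the 4 libraries.

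The replicate block gave 1 ETS gene from W2 to W6 in place of 2, *Elk4* being lost (adjusted P = 0.0761 by limma with Benjamini-Hochberg), and changed no other call of these genes. Same-numbered libraries are different mice, and their deviations correlated between −0.129 and 0.182, so the numbers were not read as pairs. With the numbers crossed, an alternative chosen after seeing the data, 2, 4 and 3 genes differed at W1, at W6 and from W6 to W12.

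Signs changed for *Etv6* with median-ratio scaling at W2 (−0.0127), at W6 (−0.0349) and from W2 to W6 (−0.0223), for *Elk4* from W1 to W2 with median-ratio scaling (0.0273) and quantile normalization (0.0606), and for *Elf1* from W6 to W12 with the same 2 (0.0281 and 0.0523). With each library left out, ranges that crossed 0 were those of *Etv6* at W1 (−0.12 to 0.50), W2 (−0.23 to 0.38), W6 (−0.21 to 0.43), from W1 to W2 (−0.39 to 0.16) and from W2 to W6 (−0.29 to 0.35). They were also those of *Elf3* at W2 (−0.64 to 0.0282), W6 (−0.73 to 0.11) and from W2 to W6 (−0.42 to 0.42), and of *Elf1* at W2 (−0.19 to 0.0891). The rest were *Ets2* from W1 to W2 (−0.37 to 0.27) and from W6 to W12 (−0.0049 to 0.23), *Elk4* from W1 to W2 (−0.0378 to 0.0295) and *Ets1* from W2 to W6 (−0.31 to 0.0881). Among all genes called, 58.6%, 57.7%, 56.5% and 33.0% were higher at W1, W2, W6 and from W6 to W12 on TPM, and 44.8%, 45.6%, 45.2% and 55.7% with median-ratio scaling. The causes of these shifts were not tested. With 2 libraries a timepoint and depth unknown, changes of low genes such as *Elf5* could not be resolved.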
